A study of Mus musculus with 22 samples.

Results

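The microbiome by morphine interaction asks, gene by gene, whether the difference between morphine and saline was of another size or sign in mice whose gut bacteria had been depleted with antibiotics. It was drawn from all 22 libraries of the study, grouped by their titles, and 14564 of the 24061 genes in the table had enough counts to be tested. Each library counted reads per gene from RNA of the nucleus accumbens, and the labels name both polyA and total RNA. All mice were C57BL/6J males aged 7 to 9 weeks. The groups held 5 libraries of antibiotic mice given morphine (Abx_Morphine), 6 of antibiotic mice given saline (Abx_Saline), 5 of water mice given morphine (H2O_Morphine) and 6 of water mice given saline (H2O_Saline). Antibiotic mice had nonabsorbable antibiotics added to their drinking water. Morphine was given at 20 mg per kg per day for 7 days. The labels do not say whether each library came from a separate animal, so p-values measure the spread between libraries.

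The nucleus accumbens lies in the ventral striatum and is known for its part in reward and in responses to addictive drugs. Morphine acts mainly through the mu opioid receptor, which Oprm1 encodes. Gut bacteria make short-chain fatty acids and other metabolites, and their depletion with nonabsorbed antibiotics is a common way to study how gut and brain are connected. An interaction is positive when morphine minus saline was more positive in antibiotic mice than in water mice, and negative when it was more negative.

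Total counts per library ran from 11789713 to 19755139, of which 9357299 to 15330947 fell in genes. Striatal projection neuron markers, 22 genes in all, were abundant and summed to between 6876 and 16040 in single libraries, in counts scaled to a library of standard size (CPM). Cortical and septal markers, 20 genes, summed to between 2176 and 5208 CPM. The library of antibiotic mice given saline numbered 6 stood apart with 2462 CPM of the nuclear RNA Malat1, followed by number 4 of the antibiotic mice given morphine with 1007 CPM, and without both of them 56 genes passed the interaction threshold, 47 of them among the genes described here.

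A total of 68 genes (0.467% of those tested) passed the interaction at a Benjamini-Hochberg adjusted p under 0.05 in edgeR's quasi-likelihood test, 32 with a positive interaction and 36 with a negative one. The largest positive values belonged to genes that were high in antibiotic mice given morphine, led by the Wnt ligand gene Wnt10b. Of 33 tested members of a list of glucocorticoid-induced genes 5 were among the 32, against 0.220% of all genes. That list was chosen with results of these data known, so the count is a description. Genes with a negative interaction included Fabp7, which encodes the brain-type lipid-binding protein of astrocytes and neural progenitors, the collagen chaperone gene Serpinh1, and the semaphorin receptor genes Plxna3 and Plxnc1. The median size of the interaction was 0.50 on the log2 scale over the 68 genes (range 0.22 to 2.47) and 0.12 over all genes, where the median standard error was 0.13. At an unadjusted p under 0.05 stood 1791 genes (12.3%).

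Near the threshold no gap separated the genes. Nfrkb and Supt3 lay just inside at an adjusted p of 0.0499, Pink1 just outside at 0.0504, and 14 genes had an adjusted p between 0.05 and 0.06. Leaving out single libraries moved the count to between 28 and 100. It moved by more than 1.5 times without antibiotic mice given morphine 1 (35 genes) or 3 (30), antibiotic mice given saline 1 (42), water mice given morphine 2 (28), 3 (42) or 6 (41), and water mice given saline 3 (33), 4 (45), 5 (41) or 6 (37). All 68 genes kept the sign of the interaction and an unadjusted p under 0.05 in each of the 33 refits. They were chosen at an unadjusted p of at most 0.000233 (edgeR) and the refits share most libraries, so this is a description. Of the 35 genes named below that passed, 21 also passed with each library left out.

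**Figure D1:**
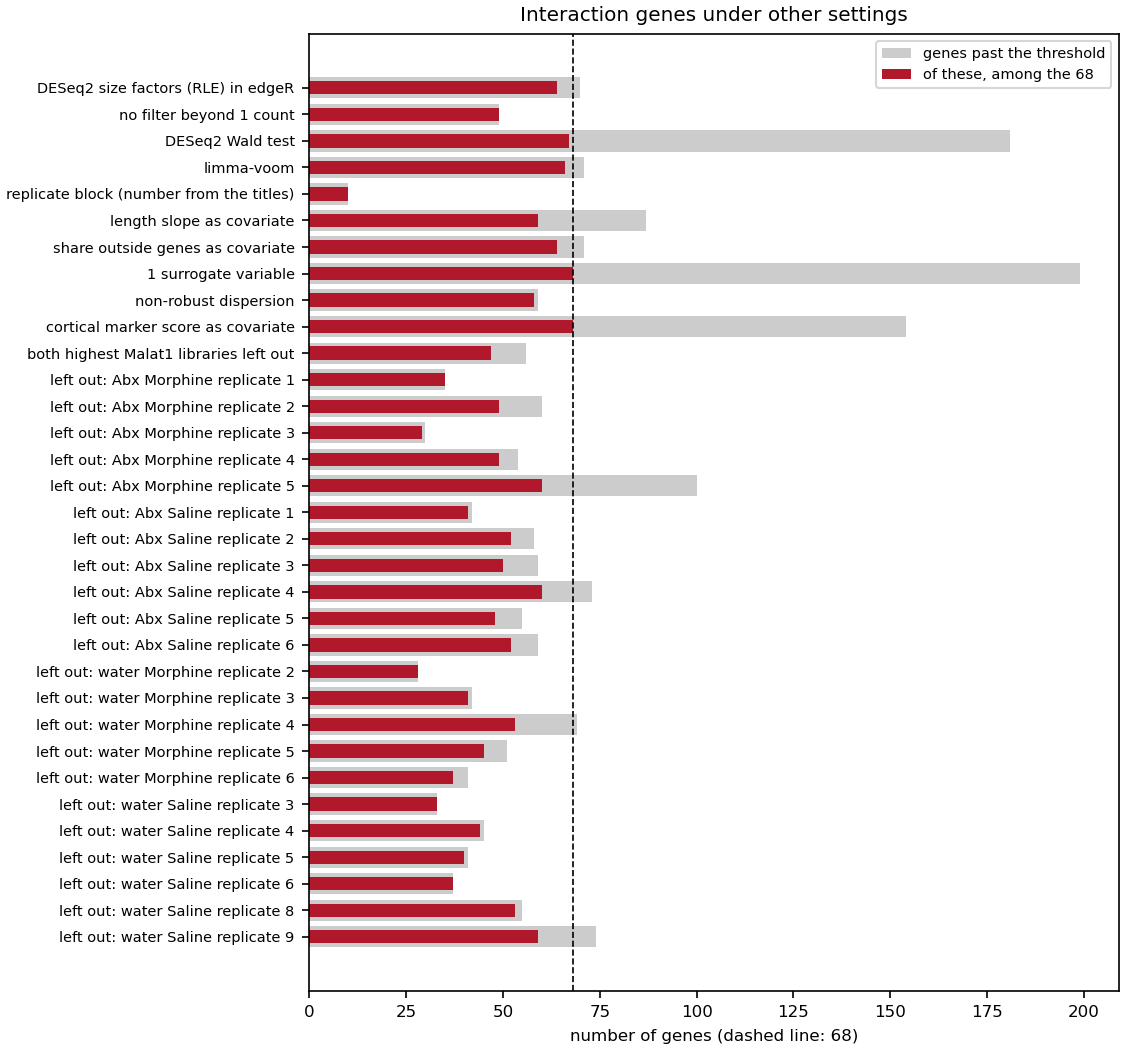
Number of genes past the interaction threshold (grey bars) and how many of them are among the 68 (red bars), for each alternative setting and each library left out. Counts ran from 10 with the replicate number as a block to 199 with 1 surrogate variable, and from 28 to 100 with a single library left out.

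The morphine changes that the interaction compares were themselves unequal in extent. Morphine against saline passed the threshold for 1900 genes (13% of those tested) in antibiotic mice and for 959 (6.58%) in water mice. Antibiotics against water passed for 2621 genes (18%) under morphine and for 205 (1.41%) under saline. Both morphine comparisons called 350 genes, which were 18.4% of the antibiotic mice's list and 36.5% of the water mice's list, and 342 of the 350 had the same sign. The 8 genes called in both with opposite signs all passed the interaction. The interaction is the difference between both changes, so changes of opposite sign add up in it and this count is a description.

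Passing in antibiotic mice alone was a much more common pattern than an interaction. Morphine passed in antibiotic mice and not in water mice for 1550 genes, of which 1200 changed in the same direction in water mice and 52 passed the interaction. It passed in water mice and not in antibiotic mice for 609 genes, of which 516 changed in the same direction in antibiotic mice and 8 passed the interaction. Over all genes, both morphine changes had the same sign for 64.8%, with a Pearson r of 0.27 and a Spearman rank correlation of 0.35 across genes, which are not independent replicates.

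**Figure D2:**
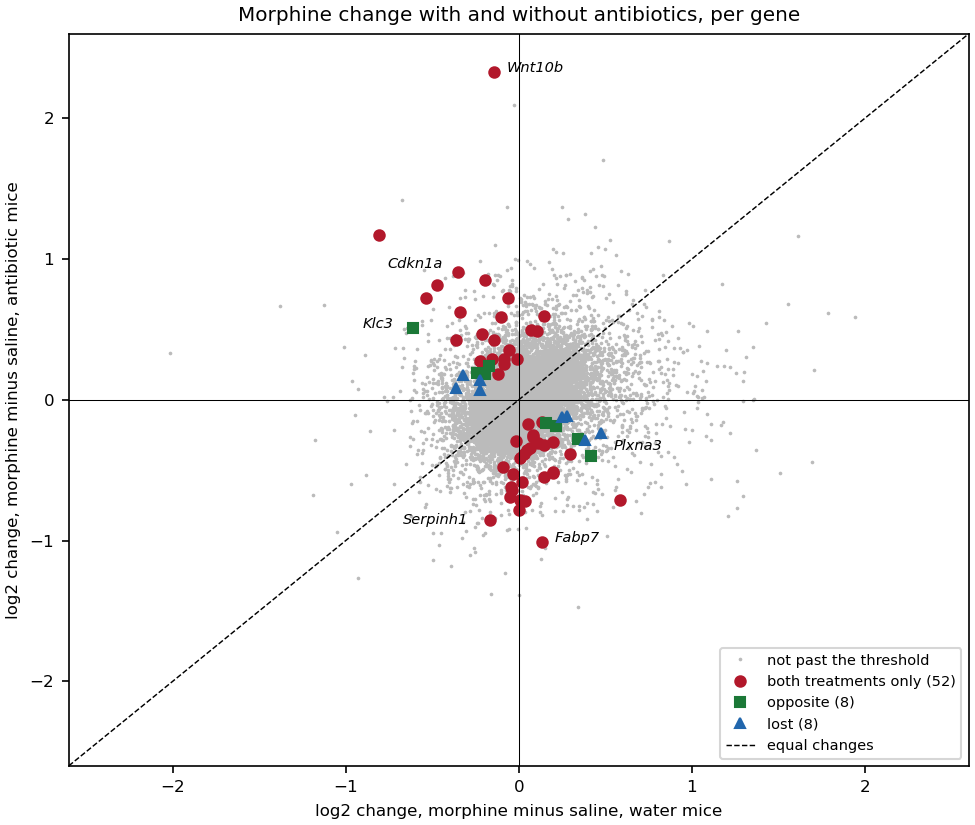
Log2 change of each gene with morphine in antibiotic mice (vertical axis) against that in water mice (horizontal axis), with genes past the interaction threshold coloured by shape and equal changes on the dashed line. The 68 genes lie away from the dashed line, most of them close to the vertical axis, with Wnt10b highest at 2.33.

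Each of the 68 genes was given a shape from the 4 simple comparisons of the same fit. In 52 genes neither treatment alone passed the threshold, while morphine passed in antibiotic mice and antibiotics passed under morphine (24 positive and 28 negative interactions). In 8 genes morphine passed in both kinds of mice with opposite signs (4 positive, 4 negative). In 8 genes morphine passed in water mice and not in antibiotic mice, called lost changes here (4 positive, 4 negative). No other shape was found at these thresholds. The split depends on them: with the simple comparisons at an unadjusted p under 0.05 the counts were 20 with both treatments only, 31 opposite, 3 lost and 14 others. With each library's length slope as a covariate they were 25, 0, 0 and 62 among 87 genes. That slope nearly separates morphine from saline libraries, so the morphine comparisons of that fit are confounded with it. A missed threshold does not show that a treatment alone had no effect.

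**Figure D3:**
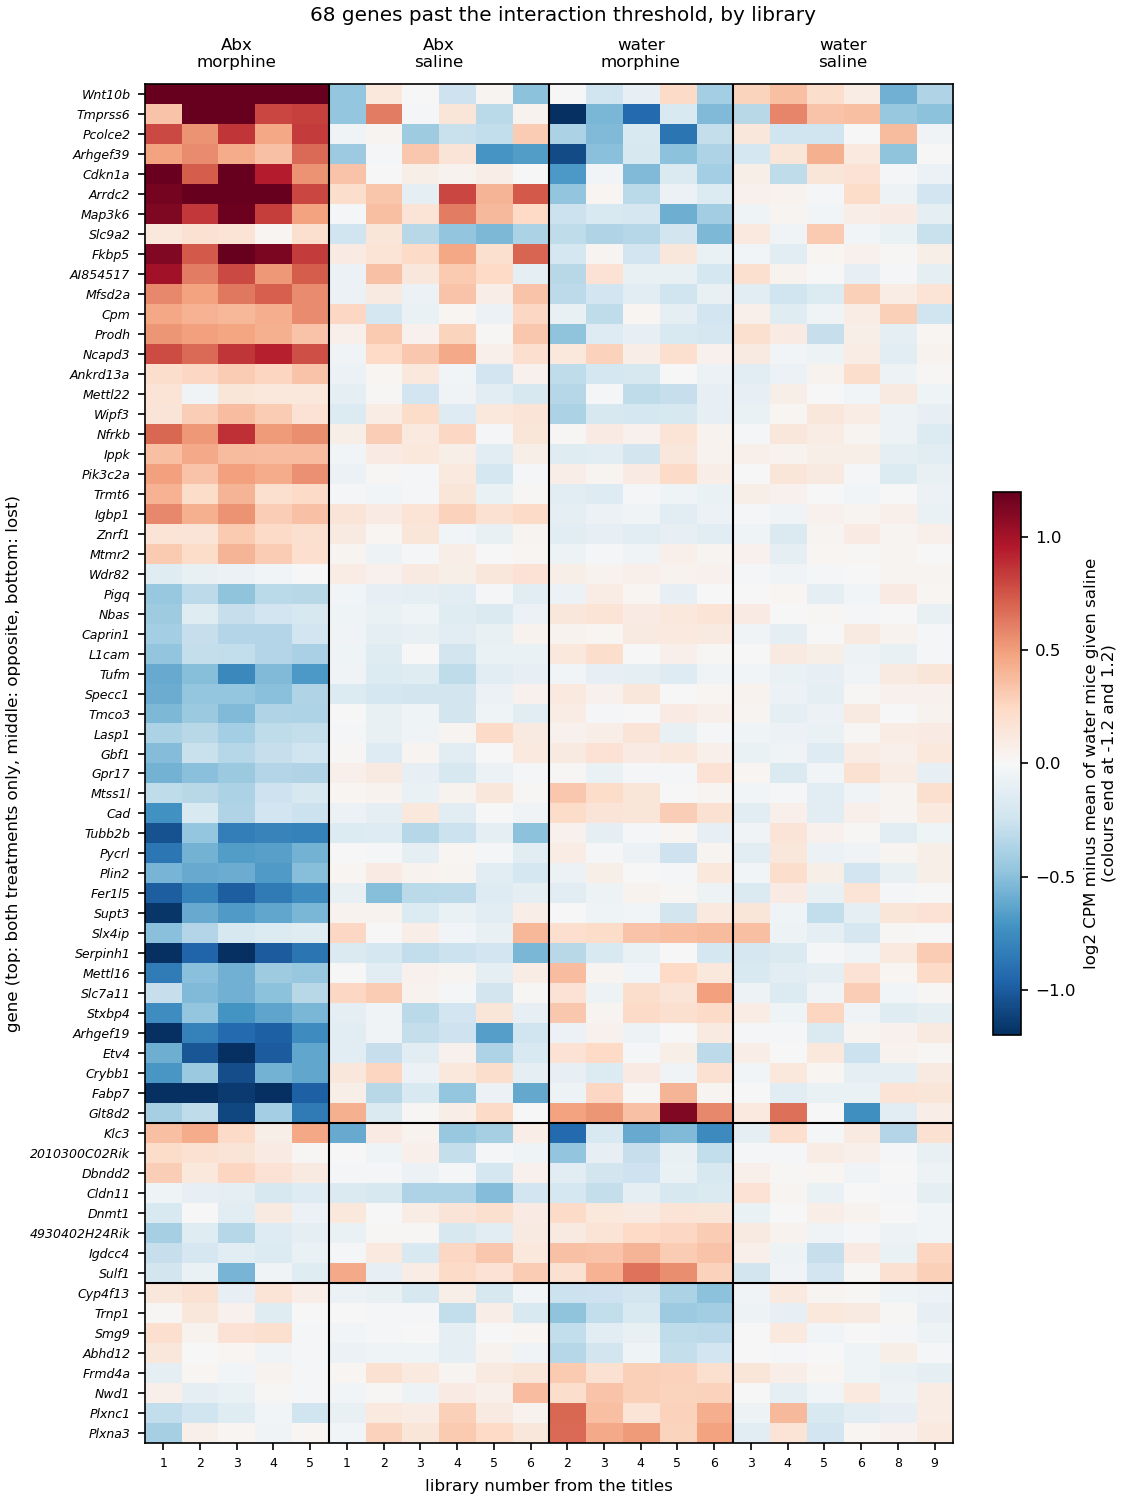
Log2 CPM of the 68 genes (lines down the page) in the 22 libraries (columns), minus the mean of water mice given saline, with red higher and blue lower. In 39 of the 52 genes of the upper block the 5 libraries of antibiotic mice given morphine lie outside the range of all others, and in the 8 genes of the lowest block water mice given morphine have the farthest mean. The genes were chosen by comparisons with these groups, so both counts are descriptions.

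Among the 52 genes that passed with both treatments only, the group mean farthest from the other group means was that of antibiotic mice given morphine in 51. In 39 of the 52, all 5 libraries of antibiotic mice given morphine lay outside the range of the other 17 libraries. The same held for 455 genes (3.12%) of all those tested, and since the 52 were chosen by comparisons with this group, both counts are descriptions. The median size of the morphine change was 0.48 on the log2 scale in antibiotic mice and 0.11 in water mice, and the median size of the antibiotic change was 0.61 under morphine and 0.10 under saline. In 20 of the 52 genes the 95% intervals of both single-treatment changes covered 0. In 41 the change in water mice had the opposite sign, and in 14 of these it was at least 0.5 times the size of that in antibiotic mice. The interaction is the difference of these 2 changes, so choosing genes by it favours opposite signs, and the 41 are a description only.

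Wnt10b, which encodes a secreted ligand of the Wnt pathway, had the largest interaction of the 68 genes. It measured 6.69, 4.42, 6.73, 6.13 and 4.33 CPM in antibiotic mice given morphine. Antibiotic mice given saline ranged from 0.849 to 1.40 CPM with a median of 1.15, water mice given morphine measured 1.26, 1.05, 1.17, 1.51 and 0.910 CPM, and water mice given saline ranged from 0.793 to 1.67 with a median of 1.42. Every library of antibiotic mice given morphine was above all others, and the other groups overlapped. Morphine raised Wnt10b 5.01-fold in antibiotic mice (log2 2.33 ± 0.19, SE), and in water mice the log2 difference was -0.14 with a 95% interval of -0.61 to 0.32. The interaction was 2.47 ± 0.30 (log2, SE, adjusted p = 0.000313, edgeR). Of the 46 tested genes of the Wnt pathway list Wnt10b alone passed the interaction, where 0.467% of all genes did, and the list's median was -0.06. Fzd4 (-0.40) and Fzd9 (-0.56), which encode Wnt receptors, came next without passing.

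Genes known to be induced by glucocorticoids, the adrenal stress hormones, were among the positive interactions. Of 33 tested members of that list 5 passed, all positive, against 0.220% of all genes, and the list's median interaction was 0.17 against -0.01 over all genes. In antibiotic mice 13 of the 33 rose with morphine and none fell, against 6.43% of all genes higher. In water mice none of the 33 rose, against 3.91% of all genes, and 2 fell, against 2.67%. Under morphine 22 of the 33 were higher with antibiotics than with water, against 8.42% of all genes, and none was lower, against 9.58%. Antibiotics under saline also raised 5 of the 33, against 0.542% of all genes, and lowered none, against 0.865%. The list's median change was 0.51 with antibiotics under morphine, 0.30 with antibiotics under saline, 0.25 with morphine in antibiotic mice and 0.02 with morphine in water mice. The list was chosen with results of these data known, so its counts are a description.

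Fkbp5, which encodes a co-chaperone that dampens the glucocorticoid receptor and is itself a target of that receptor, measured 140, 108, 163, 142 and 116 CPM in antibiotic mice given morphine. In antibiotic mice given saline it ranged from 69.3 to 105 CPM (median 74.9), in water mice given morphine from 55.1 to 71.2 (median 61.2), and in water mice given saline from 59.3 to 68.1 (median 65.6). All 5 libraries with both treatments were above the other 17, and antibiotic mice given saline were the next highest group. Its interaction was 0.79 ± 0.15 (log2, SE, adjusted p = 0.0206, edgeR), and without water mice given morphine 2 it no longer passed (0.74, adjusted p = 0.0528). Antibiotics under saline moved Fkbp5 by 0.32 on the log2 scale with an interval of 0.11 to 0.54, short of the threshold.

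Cdkn1a encodes an inhibitor of cyclin-dependent kinases that halts the cell cycle. It measured 53.1, 38.7, 63.3, 45.0 and 33.9 CPM in antibiotic mice given morphine, against 23.3 to 29.6 CPM (median 24.2) in antibiotic mice given saline. Water mice given morphine measured 14.4, 22.8, 16.1, 20.7 and 17.5 CPM, against 18.8 to 26.3 CPM (median 23.7) in water mice given saline. The libraries with both treatments were all above the other 17, while those of water mice given morphine lay low and overlapped with saline. Morphine raised Cdkn1a 1.88-fold in antibiotic mice, its log2 difference in water mice was -0.35 with an interval of -0.64 to -0.06, and the interaction was 1.26 ± 0.20 (log2, SE, adjusted p = 0.00826, edgeR).

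The other 3 members of the glucocorticoid list that passed were Arrdc2, Map3k6 and Mfsd2a. Arrdc2, of the alpha-arrestin family, averaged 30.2 ± 5.7 CPM in antibiotic mice given morphine, 16.7 ± 3.88 in antibiotic mice given saline, 10.8 ± 1.49 in water mice given morphine and 12.4 ± 1.3 in water mice given saline (SD, n = 5, 6, 5 and 6). Map3k6, a kinase of the stress-activated MAP kinase cascade, averaged 7.55 ± 1.43 CPM in antibiotic mice given morphine, 4.89 ± 0.772 in antibiotic mice given saline, 3.11 ± 0.371 in water mice given morphine and 3.94 ± 0.24 in water mice given saline. In both genes the lowest library with both treatments overlapped with antibiotic mice given saline. Antibiotics under saline moved Arrdc2 by 0.43 (interval 0.14 to 0.72) and Map3k6 by 0.31 (0.04 to 0.58) on the log2 scale, short of the threshold. Morphine in water mice moved Map3k6 by -0.34 (-0.63 to -0.05) and Mfsd2a by -0.21 (-0.40 to -0.02), also short of it. Mfsd2a, the transporter that carries lysophospholipids with omega fatty acids across the blood-brain barrier, measured 42.5 to 49.9 CPM in antibiotic mice given morphine, above every other library (24.4 to 38.5 CPM). The interactions were 1.05 for Arrdc2, 0.96 for Map3k6 and 0.68 for Mfsd2a on the log2 scale, with adjusted p of 0.0206, 0.0206 and 0.0173 (edgeR). Without water mice given morphine 2, Arrdc2 no longer passed (0.98, adjusted p = 0.0528). Klf9 (0.45, adjusted p = 0.0999), a transcription factor induced by glucocorticoids, and Sult1a1 (0.86, adjusted p = 0.109), a sulfotransferase, followed without passing.

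**Figure D4:**
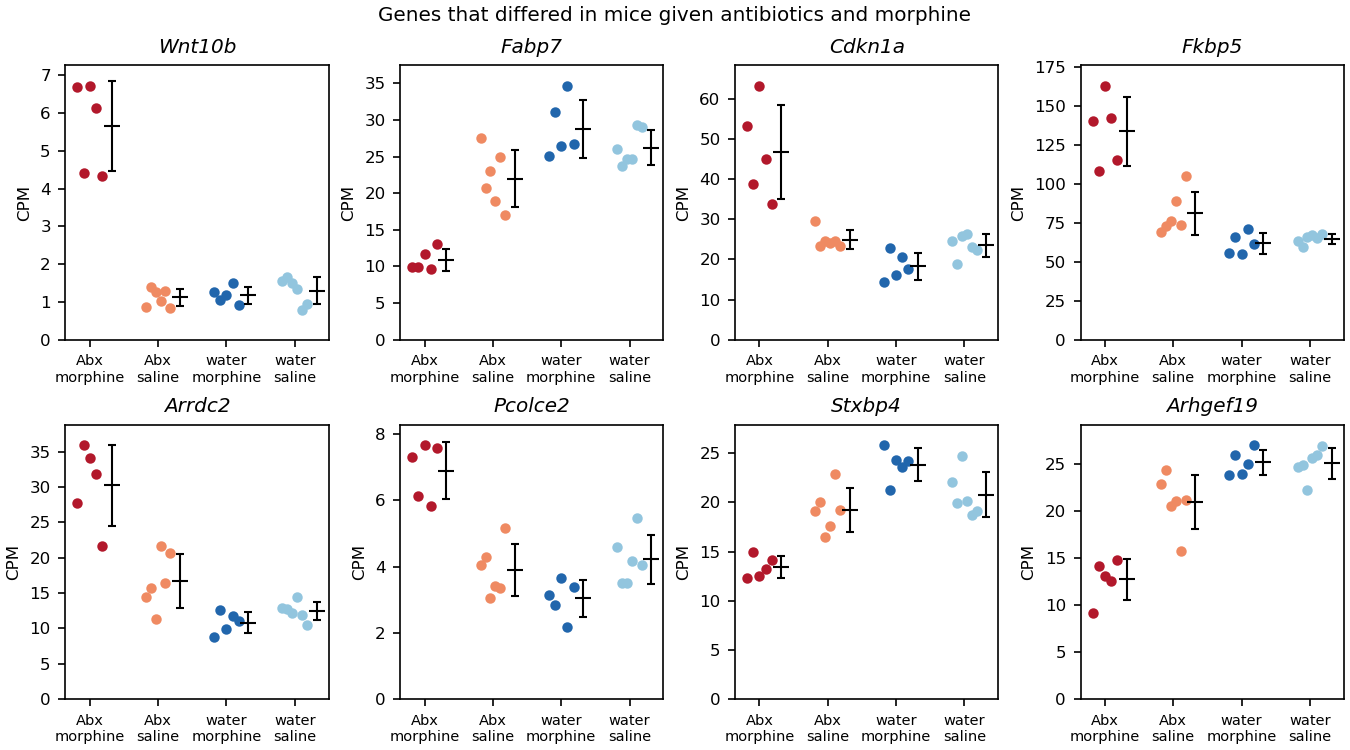
CPM of 8 genes in each library (points), with the mean and SD of each group (bar and whiskers), for antibiotic mice given morphine and saline and water mice given morphine and saline. In Wnt10b, Cdkn1a, Fkbp5 and Pcolce2 the 5 libraries with both treatments are above all 17 others, in Fabp7, Stxbp4 and Arhgef19 they are below them, and in Arrdc2 they overlap.

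Promoter sequence is shown for 3 of these genes so that the letters behind a motif search can be read: Wnt10b as the gene with the largest interaction, Fkbp5 from the glucocorticoid list, and Pcolce2, a procollagen processing enhancer gene that carries a match. Windows hold the 250 bases before the start of the gene, from RefSeq with build GRCm38.p6, 5′ to 3′ on the gene's strand. They lie at chr15:98778151-98778400 (minus strand) for Wnt10b, chr17:28486150-28486399 (minus) for Fkbp5 and chr9:95637378-95637627 (plus) for Pcolce2. Capitals mark a match to AGAACA on either strand, the half-site of the glucocorticoid receptor, or to the palindrome CACGTG, an E-box.
Wnt10b: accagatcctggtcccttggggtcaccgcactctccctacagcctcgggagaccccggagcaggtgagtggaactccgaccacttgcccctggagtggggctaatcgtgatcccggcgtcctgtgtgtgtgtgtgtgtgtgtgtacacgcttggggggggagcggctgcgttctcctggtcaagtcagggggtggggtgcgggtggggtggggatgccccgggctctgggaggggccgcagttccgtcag
Fkbp5: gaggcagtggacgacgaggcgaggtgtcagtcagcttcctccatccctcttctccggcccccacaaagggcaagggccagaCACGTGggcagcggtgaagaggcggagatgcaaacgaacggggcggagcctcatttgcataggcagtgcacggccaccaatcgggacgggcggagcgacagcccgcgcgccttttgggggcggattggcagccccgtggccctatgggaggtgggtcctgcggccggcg
Pcolce2: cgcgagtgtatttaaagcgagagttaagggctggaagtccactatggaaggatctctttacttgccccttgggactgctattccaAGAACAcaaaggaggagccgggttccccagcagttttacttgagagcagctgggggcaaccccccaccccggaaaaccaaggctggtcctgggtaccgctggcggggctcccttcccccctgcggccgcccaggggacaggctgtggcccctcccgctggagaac

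The half-site search came first and matched none of the 5 glucocorticoid-list genes that passed. CACGTG was added, and the 3 windows were picked from a larger set, only after the sequences had been read, so the E-box values describe a motif chosen for its presence in Fkbp5. AGAACA matched 3 of 27 genes with a positive interaction (11.1%), 7 of 30 with a negative one (23.3%), 5 of 28 on the glucocorticoid list (17.9%), and 18.2% of all 27025 genes with a window. CACGTG matched 4 of 27 (14.8%), 2 of 30 (6.67%), 7 of 28 (25.0%) and 6.86% of all. The full palindrome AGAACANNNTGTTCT matched none of the genes that passed, 1 of the 28 and 3 of all genes. A window without a match says only that these letters are not in these 250 bases, and 11 of the 68 genes had no window.

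Further genes with a positive interaction and this shape came from several classes. Pcolce2 measured 7.32, 6.12, 7.68, 5.82 and 7.57 CPM in antibiotic mice given morphine, against 3.05 to 5.18 (median 3.74) in antibiotic mice given saline. It measured 2.19 to 3.65 CPM in water mice given morphine (median 3.15), against 3.51 to 5.46 (median 4.10) in water mice given saline. Libraries with both treatments were the highest, and the interaction was 1.29 ± 0.22 (log2, SE, adjusted p = 0.00992, edgeR). Morphine in water mice moved Pcolce2 by -0.47 on the log2 scale (interval -0.80 to -0.14), short of the threshold. Slc9a2, a sodium-proton exchanger, averaged 8.94 ± 0.432 CPM in antibiotic mice given morphine and 6.62 ± 1.24 in antibiotic mice given saline (SD, n = 5 and 6), and 6.33 ± 0.506 in water mice given morphine and 8.18 ± 1.15 in water mice given saline (SD, n = 5 and 6). The groups with both treatments and with neither overlapped and were both high. The log2 change of Slc9a2 was -0.37 with morphine in water mice (interval -0.60 to -0.13) and -0.29 with antibiotics under saline (-0.52 to -0.07), neither past the threshold, and the interaction was 0.79. Smaller positive values were those of Ankrd13a, a ubiquitin-binding protein (0.44), Trmt6, a subunit of a tRNA methyltransferase (0.38), and Mtmr2, a phosphoinositide phosphatase (0.30). Ankrd13a changed by -0.15 with morphine in water mice (interval -0.285 to -0.019), short of the threshold. With single libraries left out, Ankrd13a passed in 19, Trmt6 and Slc9a2 in 18 and Mtmr2 in 15 of 22 fits, and all 4 missed without water mice given morphine 2 or antibiotic mice given morphine 3. Mtmr2 measured 67.8 to 78.2 CPM in antibiotic mice given morphine, above every other library (54.4 to 61.9 CPM).

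Fabp7 had the second smallest p of the interaction and was low with both treatments. It measured 9.94, 9.92, 11.7, 9.71 and 13.1 CPM in antibiotic mice given morphine, against 17.0 to 27.5 (median 21.9) in antibiotic mice given saline. Water mice given morphine measured 25.0, 31.0, 26.4, 34.7 and 26.7 CPM, against 23.8 to 29.3 (median 25.3) in water mice given saline. All libraries with both treatments lay below the other 17. With morphine Fabp7 fell to 0.497 times the saline level in antibiotic mice, the log2 difference in water mice was 0.14 with an interval of -0.09 to 0.36, and the interaction was -1.15 ± 0.16 (log2, SE, adjusted p = 0.00163, edgeR). Fabp7 is on both the astrocyte list and the list of progenitor and immature neuron genes, whose other member to pass was Tubb2b, a beta-tubulin of developing neurons. Tubb2b averaged 92.6 ± 13.7 CPM in antibiotic mice given morphine, 134 ± 13.1 in antibiotic mice given saline, 156 ± 7.84 in water mice given morphine and 159 ± 11 in water mice given saline (SD, n = 5, 6, 5 and 6). Its interaction of -0.50 (adjusted p = 0.0386, edgeR) passed in 6 of the 22 fits with a library left out. The progenitor list had a median interaction of -0.35 with 2 of 19 members negative past the threshold, against 0.247% of all genes. Its median change was 0.32 with antibiotics under saline and 0.13 with morphine in water mice. It was -0.14 with morphine in antibiotic mice and -0.04 with antibiotics under morphine. Against the list's median, Fabp7 (-0.26, interval -0.48 to -0.04) and Tubb2b (-0.25, -0.40 to -0.10) were lower with antibiotics under saline, both short of the threshold.

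Stxbp4, a syntaxin-binding protein, and Mettl16, an RNA methyltransferase, kept their call under every alternative. Stxbp4 measured 12.3 to 14.9 CPM in antibiotic mice given morphine, 16.5 to 22.9 in antibiotic mice given saline, 21.2 to 25.9 in water mice given morphine and 18.7 to 24.8 in water mice given saline. Mettl16 averaged 17.5 ± 1.94 CPM in antibiotic mice given morphine, 25.6 ± 1.58 in antibiotic mice given saline, 28.6 ± 3.25 in water mice given morphine and 25.9 ± 3.11 in water mice given saline (SD, n = 5, 6, 5 and 6). In both genes every library with both treatments was below all others. The interactions were -0.72 ± 0.12 for Stxbp4 and -0.69 ± 0.12 for Mettl16 (log2, SE), with adjusted p of 0.00992 and 0.0137 (edgeR). Morphine in water mice moved Stxbp4 by 0.20 on the log2 scale (interval 0.03 to 0.37), short of the threshold.

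Arhgef19 measured 9.13, 14.2, 13.1, 12.6 and 14.8 CPM in antibiotic mice given morphine, against 15.8 to 24.4 (median 21.1) in antibiotic mice given saline. It measured 23.9 to 27.1 CPM in water mice given morphine, against 22.2 to 27.0 in water mice given saline. The 5 libraries with both treatments were the lowest, and the interaction was -0.72 ± 0.14 (log2, SE, adjusted p = 0.0206, edgeR). Other genes low with both treatments were Pycrl, an enzyme of proline synthesis (-0.57), Fer1l5 of the ferlin family (-0.60), Mtss1l, a membrane-bending protein (-0.47), Lasp1, an actin-binding protein (-0.42), Specc1 (-0.40), Tmco3 (-0.40) and Caprin1, an RNA-binding protein of stress granules (-0.33). In each of these 7 genes all libraries with both treatments lay below the other 17. Antibiotics under saline moved Arhgef19 by -0.26 (interval -0.45 to -0.06), Fer1l5 by -0.25 (-0.41 to -0.09) and Specc1 by -0.14 (-0.24 to -0.03). Morphine in water mice moved Mtss1l by 0.15 (0.02 to 0.27). None of these changes passed the threshold, and for the remaining genes of this paragraph the intervals of both single-treatment changes covered 0. Pycrl, for example, averaged 12.3 ± 1.0 CPM in antibiotic mice given morphine, 19.0 ± 0.83 in antibiotic mice given saline, 19.1 ± 1.7 in water mice given morphine and 19.6 ± 1.3 in water mice given saline (SD, n = 5, 6, 5 and 6).

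Serpinh1, the chaperone of procollagen, and Gpr17, a receptor of oligodendrocyte precursors on their way to maturity, passed close to the threshold. Serpinh1 measured 7.95, 10.5, 6.89, 10.2 and 11.2 CPM in antibiotic mice given morphine, against 14.1 to 18.3 (median 17.4) in antibiotic mice given saline, and 16.4 to 20.7 CPM in water mice given morphine, against 17.9 to 25.6 (median 20.2) in water mice given saline. Gpr17 averaged 59.7 ± 3.74 CPM in antibiotic mice given morphine, 79.5 ± 6.06 in antibiotic mice given saline, 82.0 ± 5.65 in water mice given morphine and 81.5 ± 7.34 in water mice given saline (SD, n = 5, 6, 5 and 6). Libraries with both treatments were the lowest in both genes. Antibiotics under saline moved Serpinh1 by -0.29 on the log2 scale (interval -0.51 to -0.08), short of the threshold. The interactions were -0.69 for Serpinh1 (adjusted p = 0.048) and -0.42 for Gpr17 (adjusted p = 0.0337, edgeR), and with single libraries left out they passed in 4 and 12 of 22 fits.

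Opposite changes had a median interaction size of 0.42 on the log2 scale, against 0.54 in genes with both treatments only. Dbndd2, a dysbindin domain protein, measured 289, 257, 282, 267 and 255 CPM in antibiotic mice given morphine, against 203 to 244 (median 233) in antibiotic mice given saline. It measured 215, 203, 198, 223 and 206 CPM in water mice given morphine, against 226 to 246 (median 238) in water mice given saline. Morphine and saline libraries did not overlap within either kind of mice, and they lay in opposite order. The log2 change was 0.24 ± 0.05 in antibiotic mice and -0.17 ± 0.05 in water mice (SE), and the interaction 0.41 ± 0.07 (adjusted p = 0.00899, edgeR). Klc3, a kinesin light chain, changed by 0.51 in antibiotic mice and -0.61 in water mice on the log2 scale, and averaged 4.75 ± 0.547 CPM in antibiotic mice given morphine, 3.31 ± 0.742 in antibiotic mice given saline, 2.46 ± 0.529 in water mice given morphine and 3.80 ± 0.556 in water mice given saline (SD, n = 5, 6, 5 and 6). Without water mice given morphine 2 the interaction of Klc3, 1.12 in all libraries, was 1.04 with an adjusted p of 0.0541.

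Sulf1, an extracellular enzyme that trims heparan sulfate, went the other way round. It measured 32.9, 36.3, 26.1, 37.1 and 34.8 CPM in antibiotic mice given morphine, against 35.9 to 52.8 (median 44.2) in antibiotic mice given saline. It measured 43.4, 51.3, 60.4, 56.5 and 46.6 CPM in water mice given morphine, against 32.6 to 46.8 (median 38.1) in water mice given saline. With morphine Sulf1 was lower in antibiotic mice (-0.40 ± 0.11) and higher in water mice (0.42 ± 0.11, log2, SE), with some overlap in each, and the interaction was -0.82 ± 0.16 (adjusted p = 0.0206, edgeR). Igdcc4, an immunoglobulin superfamily member, had the same order: it changed by -0.28 in antibiotic mice and 0.34 in water mice, and all 5 libraries of water mice given morphine (50.1 to 54.0 CPM) were above those of water mice given saline (33.6 to 48.5). Dnmt1, the maintenance DNA methyltransferase, changed by -0.17 in antibiotic mice and 0.16 in water mice, and the interaction was -0.32 (adjusted p = 0.0276, edgeR). It missed without antibiotic mice given morphine 1 or 3, water mice given morphine 2 or water mice given saline 3. Dnmt1 alone of 39 tested DNA and histone modifying enzymes passed, where 0.467% of all genes did, and 1 call describes Dnmt1 and not the list.

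Cldn11, a tight junction protein of the myelin sheath, was the one opposite gene named here for which antibiotics under saline passed as well. It measured 168 to 186 CPM in antibiotic mice given morphine, against 134 to 171 (median 156) in antibiotic mice given saline, and 157 to 178 CPM in water mice given morphine, against 178 to 216 (median 191) in water mice given saline. Antibiotics alone lowered it by 0.31 on the log2 scale (interval -0.42 to -0.19), and with morphine the antibiotic change was 0.07. The interaction was 0.38 (adjusted p = 0.0335, edgeR) and passed in 11 of 22 fits with a library left out. Other myelin markers moved with it: 15 of the 24 tested, Cldn11 included, were lower with antibiotics under saline, against 0.865% of all genes, with a median of -0.31. The summed myelin markers ran from 6840 to 7818 CPM in antibiotic mice given morphine, 6689 to 7879 in antibiotic mice given saline, 6833 to 7998 in water mice given morphine and 8043 to 9275 in water mice given saline. Water mice given saline lay above every other group, and the part of myelin content in the Cldn11 interaction was not tested. Of the other 23 tested myelin genes none passed the interaction, where 0.467% of all genes did, so this is no result about the list. Apod, a lipid carrier, was nearest at 0.74 (adjusted p = 0.0718, edgeR), followed by Mobp at 0.42 (0.0873). At an unadjusted p under 0.05 (edgeR) 8 of the 24, Cldn11 included, had a positive interaction and 2 a negative one. Over all 14564 genes tested these counts were 796 and 995.

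**Figure D5:**
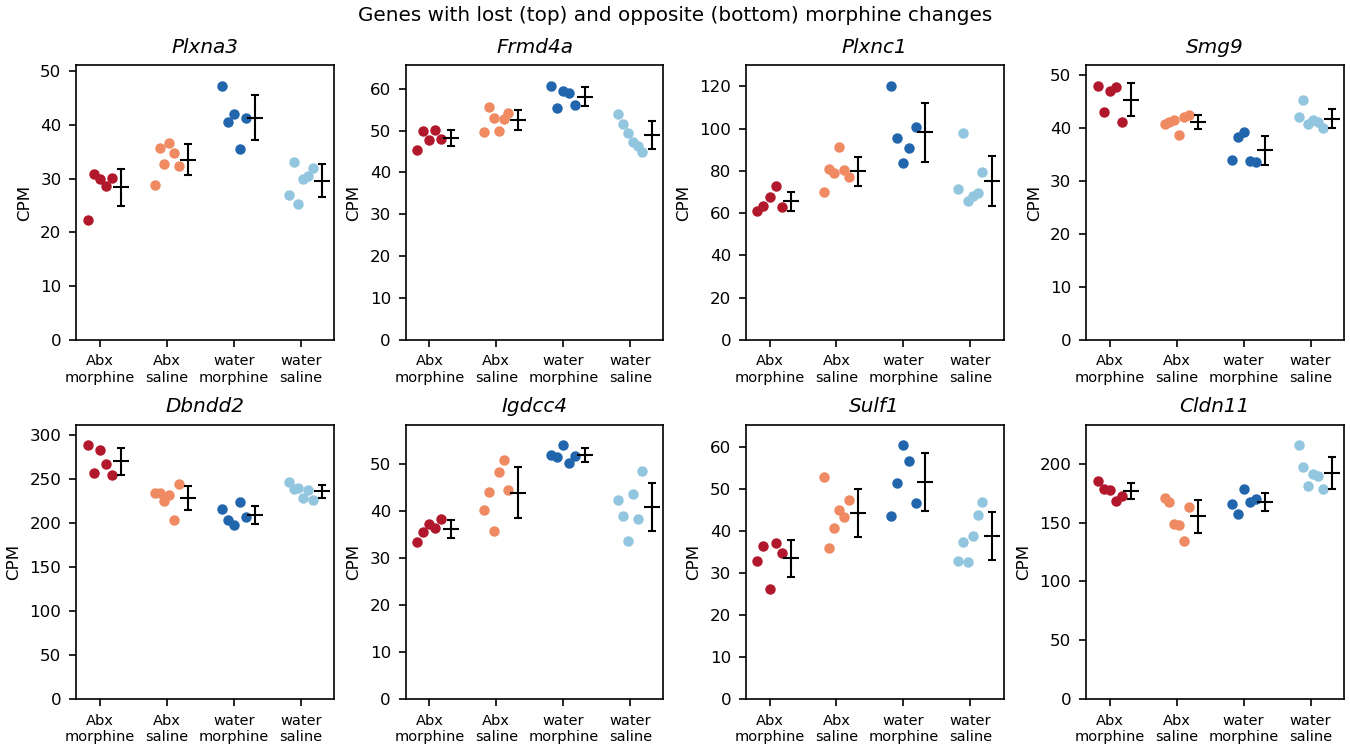
CPM of 8 genes in each library (points) with group means and SD (bar and whiskers), for 4 lost changes in the upper panels and 4 opposite changes in the lower panels. In Plxna3, Frmd4a and Plxnc1 water mice given morphine have the highest mean and overlap with other groups, and in Dbndd2 morphine is above saline in antibiotic mice and below it in water mice.

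In all 8 lost changes the mean of water mice given morphine was the farthest from the other group means. Choosing genes by a morphine change in water mice favours this, so the count is a description. In each of the 4 genes named here the libraries of this group overlapped with another group. In a lost gene not named here, water mice given morphine (5.88 to 7.10 CPM) lay below every other library (7.25 to 9.45 CPM). Plxna3, a receptor for class III semaphorins that guide axons, measured 22.3, 30.8, 30.0, 28.6 and 30.1 CPM in antibiotic mice given morphine, against 28.7 to 36.7 (median 33.8) in antibiotic mice given saline. It measured 47.3, 40.5, 42.0, 35.5 and 41.3 CPM in water mice given morphine, against 25.2 to 33.1 (median 30.2) in water mice given saline. Morphine libraries lay above all saline libraries in water mice and overlapped with them in antibiotic mice. The log2 change was -0.24 ± 0.09 in antibiotic mice (adjusted p = 0.0741) and 0.48 ± 0.09 in water mice (adjusted p = 0.00303), and the interaction was -0.71 ± 0.12 (SE, adjusted p = 0.0113, edgeR).

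Plxnc1, the receptor of semaphorin VIIA, averaged 65.5 ± 4.67 CPM in antibiotic mice given morphine and 79.7 ± 6.88 in antibiotic mice given saline, against 98.3 ± 13.9 in water mice given morphine and 75.3 ± 12 in water mice given saline (SD, n = 5, 6, 5 and 6). Its interaction of -0.66 (adjusted p = 0.0262, edgeR) missed without antibiotic mice given morphine 1 or 3, water mice given morphine 6, or water mice given saline 3 or 6. Frmd4a, a FERM domain scaffold protein, changed by -0.12 in antibiotic mice and 0.25 in water mice, with an interaction of -0.37 (adjusted p = 0.0173, edgeR). Smg9, a factor of nonsense-mediated mRNA decay, went the other way, with changes of 0.14 in antibiotic mice and -0.22 in water mice and an interaction of 0.36 (adjusted p = 0.0281, edgeR) that passed in 12 of 22 fits with a library left out. In all 8 lost genes the change in antibiotic mice had the sign opposite to that in water mice, so the line between lost and opposite is the threshold of 1 comparison. Choosing genes by the interaction favours opposite signs, so the 8 are a description only.

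The median transcript length of genes with a negative interaction was 5160.5 nucleotides, that of genes with a positive interaction 3192, and that of all genes with a known length (13891) 3260. The slope of expression on log2 transcript length averaged 0.0436 in antibiotic mice given morphine, -0.0177 in antibiotic mice given saline, 0.0385 in water mice given morphine and -0.0507 in water mice given saline. It ran from 0.025 to 0.055 and from 0.028 to 0.047 in the groups given morphine (antibiotic and water mice). In saline groups it ran from -0.053 to 0.048 (above 0 only in library 6 of the antibiotic mice) and from -0.078 to -0.011. With that slope as a covariate 59 of the 68 genes still passed. The slope nearly separates morphine from saline, so morphine comparisons in that fit cannot tell morphine and slope apart. The part of the slope in single results was not tested.

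Cell type markers are read against the 0.467% of all genes that passed, a share at which lists of this size mostly hold no call. Of 27 microglia markers none passed the interaction, and their median was -0.15 against -0.01 over all genes. Fcrls was nearest at -0.63 (adjusted p = 0.1). The summed microglia markers ran from 694.8 to 830.4 CPM in antibiotic mice given morphine, 845.6 to 1014 in antibiotic mice given saline, 904.9 to 1020 in water mice given morphine and 1038 to 1122 in water mice given saline. The group with both treatments was the lowest and did not overlap with the others. Both single-treatment groups also lay below every library of water mice given saline. Means were 756.8, 914.8, 961.6 and 1096 CPM in the same order. Antibiotics under saline lowered 9 of the 27 (0.865% of all genes) and raised none. Morphine lowered 4 (2.67%) and raised 1 (3.91%) in water mice, and lowered 18 (6.62%) and raised none in antibiotic mice. A lack of overlap in levels does not show an interaction. Fewer cells of a type and less RNA per cell cannot be told apart in such bulk samples. Astrocyte markers (1 of 20, Fabp7), oligodendrocyte precursor markers (1 of 16, Gpr17) and endothelial markers (1 of 20, Mfsd2a) passed through genes already described. Their summed levels ran from 6236 to 6821 CPM for astrocytes, 633.1 to 709.8 for precursors and 898.9 to 990.9 for endothelium in antibiotic mice given morphine. In antibiotic mice given saline they ran from 6088 to 7026, 697.9 to 802.4 and 945.4 to 1070 CPM. In water mice given morphine they ran from 6593 to 6773, 795.6 to 865.7 and 935.8 to 980.4 CPM, and in water mice given saline from 6313 to 6795, 813.2 to 901.1 and 1033 to 1127 CPM. The part of cell composition in these genes was not tested.

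Among the genes of opioid signalling none of 8 passed the interaction, with a median of -0.17. Over all genes 0.467% passed, so a count of 0 among 8 genes is no result about them. Oprm1 measured 4.79, 5.11, 6.25, 5.82 and 5.62 CPM in antibiotic mice given morphine, against 1.62 to 7.47 (median 4.04) in antibiotic mice given saline. It measured 7.99, 8.37, 4.43, 8.44 and 8.85 CPM in water mice given morphine, against 2.84 to 4.76 (median 3.47) in water mice given saline. Oprm1 rose with morphine in water mice (log2 1.04, adjusted p = 0.0108, edgeR), where 4 of 5 libraries were above all saline libraries, and its change in antibiotic mice was 0.38 (adjusted p = 0.311). The library with 4.43 CPM had a cortical and septal score (mean centred log2 CPM of the markers) of 1.005. The others of its group had -1.42 to -0.277, and the part of tissue content in the Oprm1 change was not tested. The difference between both changes was -0.66 ± 0.33 (log2, SE) with an adjusted p of 0.426, so the interaction did not pass. The opioid peptide genes Penk (0.24) and Pdyn (-0.19) and the dopamine receptor gene Drd2 (0.09) had adjusted p of 0.697, 0.809 and 0.924.

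Itgad, an integrin subunit of leukocytes, had one of the largest fold differences without passing. It measured 3.16, 2.71, 3.64, 3.42 and 2.52 CPM in antibiotic mice given morphine, against 0.420 to 0.865 (median 0.826) in antibiotic mice given saline. In water mice given morphine it measured 0.105, 0.224, 0.195, 0.528 and 0 CPM, against 0 to 0.705 (median 0.134) in water mice given saline. The 5 libraries with both treatments were above the rest. Itgad had 35 to 46 reads in these 5 libraries and 0 to 10 in each other one, so it passed the low-count filter through the group where it was high. Its interaction was 2.12 ± 0.73 (log2, SE, adjusted p = 0.211, edgeR), a value fitted on levels near 0 in water mice.

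At a share of 0.467% over all genes a list of this size is mostly without a call, so a count of 0 in the remaining lists is no result about them. Extracellular matrix and collagen genes had 1 of 30 (Serpinh1) and a median of -0.15. None passed among 23 immediate early genes (median 0.02), 22 clock genes (0.13), 23 GABA synapse genes (-0.10), 24 glutamate receptors (-0.11), 25 interferon-stimulated genes (-0.13), 22 cholesterol synthesis genes (-0.03), 28 heat shock genes (-0.07), 38 DNA repair genes (-0.01), 42 lysosomal genes (-0.01), 75 oxidative phosphorylation genes (0.05) and 77 ribosomal protein genes (0.05). Xpc, which recognises DNA damage in nucleotide excision repair, was the nearest DNA repair gene at 0.58 (adjusted p = 0.0727), and Cry1, a clock repressor, the nearest clock gene at 0.47 (0.102). The 4 genes of a cold-inducible list had a median of 0.32 with no call. Among them were the RNA-binding protein genes Cirbp at 0.45 (adjusted p = 0.203, edgeR) and Rbm3 at 0.22 (0.503). None of 22 striatal projection neuron markers (median 0.14), 20 cortical and septal markers (-0.19), 12 pericyte and smooth muscle markers (-0.12) or 7 choroid plexus and ependyma markers (-0.09) passed. Neither did the 2 leukocyte markers nor the 1 erythrocyte marker that could be tested.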

How the data were processed

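Per the labels' protocols, TRIzol RNA was made into cDNA (SMARTer) and sonicated. PolyA RNA and total RNA are both named as the input. The authors deposited raw read counts per gene. Per the submitters' processing notes FastQC, STAR 2.4.0 and edgeR were used. The sources used here do not give build, annotation or strand, and overlapping genes are not told apart. Summary entries (20.6% to 26.4% of a library's counts) were removed. Of the 24061 genes, 4053 were 0 throughout, and 27 names had turned into dates and are not named.

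The software was DESeq2 1.42.0, edgeR 4.0.16, sva 3.50.0 and limma 3.58.1 under R 4.3.3. Genes passed filterByExpr by group. A 4-group robust quasi-likelihood model with TMM gave all contrasts, two-sided. CPM used gene counts and TMM factors, and the heat map log2 CPM with a prior count of 2. SE is the log2 value divided by the square root of F. The labels give no batch. Within groups, 50 library pairs differed by 3.09 to 22.0 times sampling variance. The fit was tested on simulated data.

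Named genes are the 15 smallest p in each direction, 4 per shape, up to 3 per list and 8 set genes. Klf9, Sult1a1, Supt3, Nfrkb and Pink1 were named after their values were seen. Members, lists and rules were chosen with earlier results of these data known. The cortical marker covariate and the removal of the 2 libraries high in Malat1 were chosen after seeing the data. Transcript lengths came from GENCODE by symbol (95.4% of genes).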

Additional observations from a re-analysis of the deposited data

Results flagged for a closer look

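A single library stood apart from its group in 10 of 176 groups checked (40 genes and 4 library measures), where chance gives about 5%. In water mice given morphine, library 4 was low for Oprm1 (4.43 CPM, others 7.99 to 8.85), Penk (837.7 CPM, others 1267 to 1366) and Pdyn (228.2 CPM, others 391.6 to 446.1). The same library had the group's highest cortical and septal score (1.005, others -1.42 to -0.277). Its striatal projection neuron score was the group's lowest (-0.430, others -0.081 to 0.270). The part of tissue content in its low values was not tested. In antibiotic mice given morphine, library 1 had 22.3 CPM of Plxna3 (others 28.6 to 30.8). In antibiotic mice given saline, library 1 had 29.6 CPM of Cdkn1a (others 23.3 to 24.7), library 6 had 14.1 CPM of Serpinh1 (others 16.8 to 18.3), and library 5 had a striatal projection neuron score of -0.789 (mean centred log2 CPM of the markers, others -0.103 to 0.279). In water mice given saline, library 4 had 54.4 CPM of Mtmr2 (others 58.4 to 60.8) and a cortical and septal score of -1.21 (others -0.191 to 0.348), and library 8 had 0.705 CPM of Itgad (others 0 to 0.251).

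The morphine change differed between antibiotic and water mice, by the interaction test itself, in 35 named genes. The log2 interactions above 0 were those of Wnt10b (2.47), Pcolce2 (1.29), Cdkn1a (1.26), Klc3 (1.12), Arrdc2 (1.05), Map3k6 (0.96), Fkbp5 (0.79), Slc9a2 (0.79), Mfsd2a (0.68), Ankrd13a (0.44), Dbndd2 (0.41), Cldn11 (0.38), Trmt6 (0.38), Smg9 (0.36) and Mtmr2 (0.30). Those below 0 were Fabp7 (-1.15), Sulf1 (-0.82), Stxbp4 (-0.72), Arhgef19 (-0.72), Plxna3 (-0.71), Mettl16 (-0.69), Serpinh1 (-0.69), Plxnc1 (-0.66), Igdcc4 (-0.62), Fer1l5 (-0.60), Pycrl (-0.57), Tubb2b (-0.50), Mtss1l (-0.47), Lasp1 (-0.42), Gpr17 (-0.42), Tmco3 (-0.40), Specc1 (-0.40), Frmd4a (-0.37), Caprin1 (-0.33) and Dnmt1 (-0.32).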

How the results depend on the processing

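Neither the sign of the 68 genes nor an unadjusted p under 0.05 changed in any of the 33 refits, which reuse the libraries that chose the 68. Of the 35 named genes that passed, 9 did so in all of the refits. DESeq2's size factors (70 genes), limma-voom (71), no low-count filter (49), the share outside genes (71), non-robust dispersion (59) and the removal of both libraries high in Malat1 (56) kept the count within 1.5 times 68. The split of 32 positive and 36 negative became 28 and 42 with DESeq2's size factors, 18 and 31 without the filter, 17 and 39 without both libraries high in Malat1, and 31 and 56 among the 87 genes with the length slope. The Wald test of DESeq2 gave 181 genes, 1 surrogate variable 199, the cortical marker score 154 and an adjusted p under 0.1 146. Genes with both treatments only, opposite, lost and other shapes numbered 128, 13, 27 and 13 with DESeq2. They numbered 139, 19, 36 and 5 with the surrogate variable, 111, 16, 24 and 3 with the cortical score, and 108, 8, 23 and 7 at an adjusted p under 0.1. With the length slope they were 25, 0, 0 and 62, and with simple comparisons at an unadjusted p 20, 31, 3 and 14. Without the filter 4 genes were opposite and 1 of another shape, and without both libraries high in Malat1 5 were opposite. The cause was not tested. Leaving out each library gave 28 to 100 genes, 23 to 75 with both treatments only, 2 to 8 opposite, 2 to 11 lost and 0 to 6 others, and the positive calls ran from 6 to 34. With the replicate number as a block 10 genes passed (7 with both treatments only, 3 opposite, 0 lost). Same-numbered libraries correlated between -0.478 and 0.353 in their deviations from group means (median 0.0178), and 8 of 25 pairs were over 0.1. Differences between single libraries, such as cortical scores from -1.42 to 1.32, also enter these correlations. The correlations therefore cannot show whether the numbers pair the samples. At these depths a median standard error of 0.13 on the log2 scale limits small interactions.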
